A study of Mus musculus with 9 samples.

Results

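Dot1l, the enzyme that methylates lysine 79 of histone H3 (H3K79), and 8 genes whose proteins work with it were followed across 8 RNA-seq libraries of midbrain dopamine (DA) neurons sorted from mouse embryos. The 9 genes, Dot1l, Mllt10, Mllt6, Mllt3, Mllt1, Kmt2a, Aff1, Aff3 and Aff4, were taken by symbol from the 47729 genes of the count files, and all 9 were found there. All embryos, controls included, were Pitx3-Cre/+ with Rosa-lox-stop-lox-Yfp on a C57/Bl6 background, and they differed in Dot1l, which was wild type (Dot1l-+/+), floxed on 1 allele (Dot1l-+/fl) or floxed on both (Dot1l-fl/fl). In the text they appear as Dot1l(+/+), with 3 libraries analysed, Dot1l(fl/+), with 3, and Dot1l(fl/fl), with 2. Dot1l(fl/fl) 3 was not analysed here. The comparison asks how removal of Dot1l in postmitotic DA neurons bears on the transcripts of Dot1l itself and of its partners.

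Neurons were sorted at E15.75 by the YFP that Cre switches on. Cre is made from the Pitx3 locus, so it acts in DA neurons after their last division, and all groups therefore have a Pitx3 allele that carries Cre. The methods of the study say that embryos were pooled for every library and that each pregnant female gave an embryo of every genotype, but the labels do not say whether equal replicate numbers mark such sets.

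DOT1L is the known H3K79 methyltransferase of mammals, and the mark lies over the bodies of transcribed genes. AF10 and AF17, encoded by Mllt10 and Mllt6, bind DOT1L through a coiled coil, and AF10 is required for the higher methylation states. AF9 and ENL, encoded by Mllt3 and Mllt1, read acylated histones with their YEATS domain and bind either DOT1L or the AFF scaffold proteins of the super elongation complex, which carries the kinase P-TEFb to RNA polymerase II. Kmt2a encodes a methyltransferase of lysine 4 of histone H3 that is fused to these partners in leukaemia.

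Dot1l (ENSMUSG00000061589) lies at chr10:80755206-80795461 of GRCm38, on the plus strand. The floxed exon is exon 5 of 28 in the transcript Dot1l-201, at chr10:80771138-80771366, and it is coding. Its 229 bases span codons 89 to 165 of 1540, and division of its length by 3 leaves 1 base. It is printed below since it is the only part of the gene that the genotypes were designed to differ in. Capitals mark exon 5 and lower case the 20 bases of exon 4 and of exon 6 that flank it in the spliced transcript, 5′ to 3′, from the GENCODE transcripts.
Dot1l-201 with exon 5: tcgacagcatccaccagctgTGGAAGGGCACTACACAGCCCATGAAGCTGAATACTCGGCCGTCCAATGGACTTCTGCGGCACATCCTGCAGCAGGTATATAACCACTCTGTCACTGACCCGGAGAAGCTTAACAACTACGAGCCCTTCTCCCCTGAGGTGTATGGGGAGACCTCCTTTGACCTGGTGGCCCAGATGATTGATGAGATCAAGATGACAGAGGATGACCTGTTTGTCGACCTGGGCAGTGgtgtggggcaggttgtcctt
Exon 4 joined to exon 6: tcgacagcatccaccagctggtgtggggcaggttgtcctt
In the joined sequence the reading frame reaches its first stop after 129 codons. Exon 5 is held by 2 of the 7 annotated Dot1l transcripts and makes up 3.36% of the 6808 bases of Dot1l-201, or 2.63% of the 8705 bases of all Dot1l exons merged. The deposited counts are sums over whole genes. Most of the bases counted thus lie outside exon 5, and the gene count is only a weak check of the genotype labels.

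Library totals were between 26296897 and 43674673 counts in Dot1l(+/+), between 28173586 and 29917556 in Dot1l(fl/+), and 18298340 and 13616922 in the Dot1l(fl/fl)-labelled libraries 1 and 2, which were thus the shallowest. The 9 listed DA neuron markers, Th, Slc6a3, Slc18a2, Ddc, Pitx3, Nr4a2, Lmx1b, En1 and Foxa2, were all detected. Their summed level was between 4857 and 5388 CPM (library-size-scaled counts) in Dot1l(+/+), between 4645 and 5089 CPM in Dot1l(fl/+), and between 3986 and 4613 CPM in the Dot1l(fl/fl)-labelled libraries. Markers of radial glia summed to between 219 and 259 CPM, of glutamatergic neurons to between 183 and 231 CPM and of microglia to between 79.9 and 115 CPM over all libraries. Summed GABAergic markers were between 204 and 225 CPM in Dot1l(+/+) and between 196 and 231 CPM in Dot1l(fl/+). In the Dot1l(fl/fl)-labelled libraries they were between 235 and 264 CPM, so this sum, like the DA neuron sum on the lower side, did not overlap the others. Both sums lay apart by little. Of the GABAergic markers only Slc32a1 lay apart, at 156 and 129 CPM against 106 to 120 CPM in the other genotypes. Of the DA neuron markers Th, Ddc and En1 lay below all libraries of the other genotypes, and the rest overlapped. Of all tested genes, 11.6% lay wholly below and 12.1% wholly above Dot1l(+/+) in the Dot1l(fl/fl)-labelled libraries. Against Dot1l(fl/+) these shares were 9.57% and 10.2%. Summed blood markers were between 11.9 and 18.7 CPM outside the Dot1l(fl/fl)-labelled libraries and between 16.7 and 33.4 CPM within them. Oligodendrocyte lineage, endothelial and serotonergic markers each stayed at or below 14.3 CPM. Every marker listed had counts in at least 1 library. The part of these markers in the members' values was not tested.

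All 9 members were detected in every library, over a wide range of levels. Per transcript length, as RPKM, which divides CPM by the kilobases of all exons merged, Mllt1 was the highest in Dot1l(+/+), at 58.1 ± 0.80 RPKM (SD, n = 3), and its mean over the 8 libraries stood at the 94.99th percentile of 17925 tested genes with a known length. Aff4 followed at 22.1 ± 2.07 RPKM, and its range met neither that of Mllt1 nor that of Aff3. Aff3 at 16.03 ± 2.70 RPKM, Mllt6 at 14.7 ± 2.64 RPKM, Kmt2a at 11.6 ± 2.04 RPKM and Dot1l at 10.9 ± 1.18 RPKM formed a series in which each gene overlapped its neighbour. Dot1l itself stood at the 68.8th percentile of the same genes. Mllt3 at 7.92 ± 0.233 RPKM and Mllt10 at 6.86 ± 0.918 RPKM overlapped each other and lay below the Dot1l range. Aff1 was by far the lowest, at 0.288 ± 0.0805 RPKM, the 13.0th percentile. With the longest transcript as the length, Mllt3 moved from rank 7 to rank 4, Mllt6 from 4 to 5 and Kmt2a from 5 to 7.

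**Figure D1:**
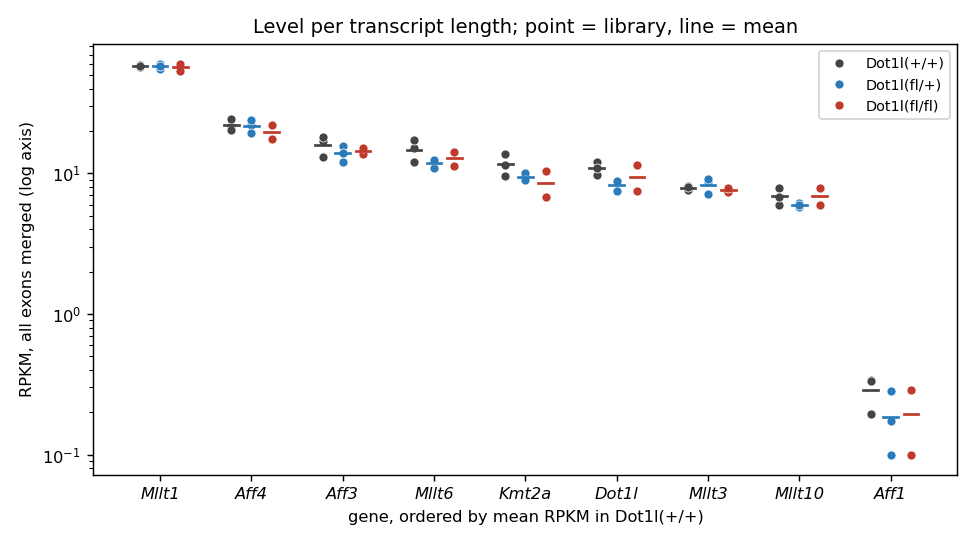
Level of the 9 genes per transcript length (RPKM over all exons merged, log axis), each point being a library and each short line a group mean, with genes ordered by their Dot1l(+/+) mean. Mllt1 lies near 58.1 RPKM and Aff1 near 0.288 RPKM in Dot1l(+/+), and the order is the same in Dot1l(fl/+).

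The partners that share a role thus differed in level. Of the transcripts of the YEATS proteins, the ratio of Mllt3 to Mllt1 in RPKM stayed between 0.122 and 0.157 over the 8 libraries, with overlapping ranges in the 3 genotypes. Its size depends on the length used. Mllt3 has 12004 bases of merged exons but 6069 in its longest transcript, and Mllt1 has 3918 and 3636. Of the coiled-coil partners, the ratio of Mllt10 to Mllt6 was between 0.395 and 0.519 in Dot1l(+/+), between 0.472 and 0.566 in Dot1l(fl/+) and between 0.522 and 0.551 in the Dot1l(fl/fl)-labelled libraries. The lowest of these last values exceeded the highest of Dot1l(+/+) by little, and the ratio was not tested. Of the AFF scaffolds, Aff4 exceeded Aff3 by 1.27 to 1.81 times and Aff1 by 61.0 to 222 times. The order of the 9 genes was the same in Dot1l(fl/+) as in Dot1l(+/+), while in the Dot1l(fl/fl)-labelled libraries Dot1l at 9.42 ± 2.78 RPKM and Kmt2a at 8.59 ± 2.56 RPKM (SD, n = 2) changed places with overlapping ranges.

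Dot1l transcript, read as CPM from here on since each gene is compared only with itself, was at 105.2, 84.6 and 94.6 CPM in Dot1l(+/+) 1 to 3. It was at 75.5, 65.6 and 76.2 CPM in Dot1l(fl/+) 1 to 3. In the Dot1l(fl/fl)-labelled libraries it was at 64.9 CPM in library 1 and 99.1 CPM in library 2. All 3 Dot1l(fl/+) libraries lay below all 3 Dot1l(+/+) libraries, whereas the Dot1l(fl/fl)-labelled library 2 lay within the Dot1l(+/+) range and the Dot1l(fl/fl)-labelled library 1 was the lowest of the 8. Most bases of the gene count lie outside the floxed exon. The level in the Dot1l(fl/fl)-labelled library 2 is thus only a weak check of its label and does not decide its genotype, which was not tested. Because of this level, the values of the members are given with and without the Dot1l(fl/fl)-labelled library 2. The same holds for the pathway genes named with an unadjusted p under 0.05 against Dot1l(+/+).

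Dot1l in Dot1l(fl/+) was 76.4% of its Dot1l(+/+) mean, with a log2 fold change of -0.39 ± 0.13 (SE, 95% interval -0.66 to -0.11). Its unadjusted p in edgeR was 0.00744, which ranked 109 of 17988 genes, and the adjusted p was 0.94. No gene passed the adjusted threshold of 0.05 in this comparison (0.0%), while 5.02% of genes had an unadjusted p under 0.05. In the Dot1l(fl/fl)-labelled libraries Dot1l was 86.4% of the Dot1l(+/+) mean, with a log2 fold change of -0.21 ± 0.15 (95% interval -0.52 to 0.10) and an adjusted p of 0.718 in edgeR. Without the Dot1l(fl/fl)-labelled library 2 the log2 fold change was -0.55, and without the Dot1l(fl/fl)-labelled library 1 it was 0.06. Library 2 was singled out by its high Dot1l level, so the lower value without it follows from that choice. Against Dot1l(fl/+) the Dot1l(fl/fl)-labelled libraries differed in Dot1l by 0.18 ± 0.15 on the log2 scale (95% interval -0.13 to 0.48). In sorted pools, fewer cells of a type and less RNA per cell cannot be told apart.

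**Figure D2:**
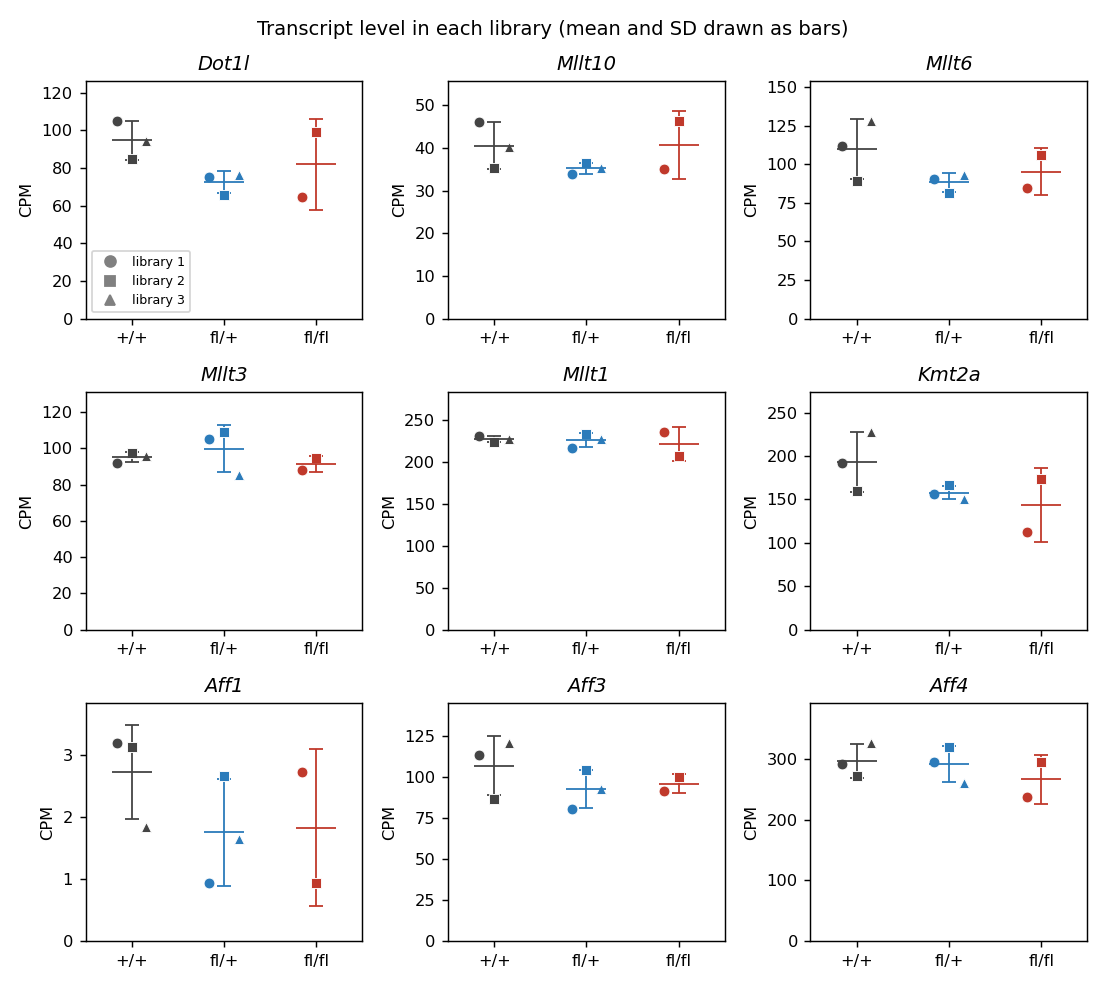
CPM of each gene in each library, by genotype; symbols mark the library number, horizontal bars the group mean and vertical bars the SD (n = 3, 3 and 2), and every axis starts at 0. Dot1l in the 3 Dot1l(fl/+) libraries lies between 65.6 and 76.2 CPM and in the 3 Dot1l(+/+) libraries between 84.6 and 105.2 CPM, while the Dot1l(fl/fl)-labelled libraries lie at 64.9 and 99.1 CPM.

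Mllt10 and Mllt6 encode the coiled-coil partners. Mllt10 (chr2:18055237-18212388) was at 46.1, 35.3 and 40.2 CPM in Dot1l(+/+), at 34.0, 36.6 and 35.3 CPM in Dot1l(fl/+), and at 35.0 and 46.4 CPM in the Dot1l(fl/fl)-labelled libraries 1 and 2. The groups overlapped, and the highest value was in the Dot1l(fl/fl)-labelled library 2. The log2 fold change against Dot1l(+/+) was -0.20 ± 0.15 in Dot1l(fl/+) and 0.00 ± 0.17 in the Dot1l(fl/fl)-labelled libraries, where it was -0.21 without library 2 and 0.19 without library 1. Mllt10 shares 749 exon bases (12.7% of its own) with Dnajc1 on the opposite strand, so its counts are uncertain where the strand setting of the counting is not given.

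Mllt6 (chr11:97663414-97685463) was at 112, 89.2 and 128 CPM in Dot1l(+/+), at 90.7, 81.5 and 93.1 CPM in Dot1l(fl/+), and at 84.6 and 106 CPM in the Dot1l(fl/fl)-labelled libraries. Dot1l(+/+) 2 was the lowest of its group, as for Dot1l, and lay within the range of the other genotypes. The log2 fold change in Dot1l(fl/+) was -0.31 ± 0.12, with an unadjusted p of 0.0182 and an adjusted p of 0.94 in edgeR. In the Dot1l(fl/fl)-labelled libraries it was -0.21 ± 0.14, with an adjusted p of 0.704, and it was -0.38 without library 2 and -0.05 without library 1.

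The YEATS proteins were the steadiest. Mllt1 (chr17:56892611-56935415) was at 231, 225 and 228 CPM in Dot1l(+/+), at 218, 234 and 227 CPM in Dot1l(fl/+), and at 237 and 208 CPM in the Dot1l(fl/fl)-labelled libraries. Both extremes came from the Dot1l(fl/fl)-labelled libraries, so the genotypes overlapped throughout. Its SD within groups was 0.07 on the log2 scale, the lowest of the 9. Against Dot1l(+/+) the log2 fold change was -0.01 (95% interval -0.19 to 0.18) in Dot1l(fl/+) and -0.03 (95% interval -0.24 to 0.17) in the Dot1l(fl/fl)-labelled libraries, which leaves room for differences up to those bounds. Without library 2 of the latter it was 0.05 and without library 1 -0.13.

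Mllt3 (chr4:87769925-88033364) was at 92.0, 97.5 and 95.9 CPM in Dot1l(+/+), at 105, 109 and 84.98 CPM in Dot1l(fl/+), and at 88.3 and 94.5 CPM in the Dot1l(fl/fl)-labelled libraries. It was the only member whose log2 fold change in Dot1l(fl/+) was positive, at 0.07 ± 0.11, and the Dot1l(fl/+) libraries held both its highest and its lowest value. In the Dot1l(fl/fl)-labelled libraries the log2 fold change was -0.06 ± 0.12, with -0.11 without library 2 and -0.01 without library 1.

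Kmt2a (chr9:44803355-44881296) had the lowest adjusted p of the members in any comparison. It shares 378 exon bases (2.27% of its own) with an antisense transcript. It was at 191, 160 and 228 CPM in Dot1l(+/+), at 157, 166 and 151 CPM in Dot1l(fl/+), and at 113 and 173 CPM in the Dot1l(fl/fl)-labelled libraries 1 and 2. The Dot1l(fl/fl)-labelled library 1 was the lowest of the 8, while the Dot1l(fl/fl)-labelled library 2 lay above all Dot1l(fl/+) libraries and above Dot1l(+/+) 2. The log2 fold change in the Dot1l(fl/fl)-labelled libraries was -0.43 ± 0.15 (95% interval -0.74 to -0.12), with an unadjusted p of 0.00794 and an adjusted p of 0.327 in edgeR. In Dot1l(fl/+) it was -0.29 ± 0.13, with an unadjusted p of 0.0373 and an adjusted p of 0.94 in edgeR.

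The call on Kmt2a depended on the libraries and genes included. Without the Dot1l(fl/fl)-labelled library 2 its log2 fold change was -0.77, with an edgeR adjusted p of 0.0198, in a fit that called 0.258% of genes and in which the remaining Dot1l(fl/fl)-labelled library is assumed to vary like the other groups. Without the Dot1l(fl/fl)-labelled library 1 it was -0.16. Without a filter on low counts, a fit that called 0.447% of genes, Kmt2a had an adjusted p of 0.0445 at a log2 fold change of -0.44. With the filter the adjusted p of Kmt2a in edgeR was 0.327. The Dot1l(fl/fl)-labelled library 2 also exceeded library 1 by 0.62 on the log2 scale in Kmt2a and by 0.61 in Dot1l, against 0.41 in Mllt10, 0.33 in Mllt6, 0.31 in Aff4, 0.13 in Aff3 and 0.10 in Mllt3, and it was lower in Mllt1 (-0.18) and Aff1 (-1.48).

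**Figure D3:**
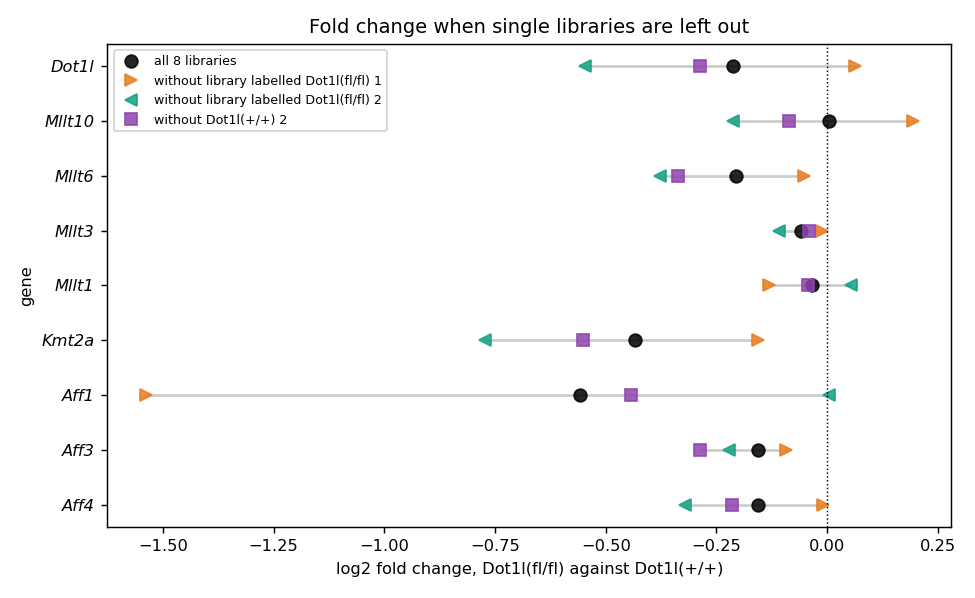
Log2 fold change of the Dot1l(fl/fl)-labelled libraries against Dot1l(+/+) for each gene, with all 8 libraries (circle) and without single libraries (other symbols). For Dot1l the value runs from -0.55 without the Dot1l(fl/fl)-labelled library 2 to 0.06 without the Dot1l(fl/fl)-labelled library 1, and for Kmt2a from -0.77 to -0.16.

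Of the AFF scaffolds, Aff4 (chr11:53350833-53421830) was at 291, 272 and 327 CPM in Dot1l(+/+), at 295, 320 and 261 CPM in Dot1l(fl/+), and at 238 and 295 CPM in the Dot1l(fl/fl)-labelled libraries. Its log2 fold change against Dot1l(+/+) was -0.02 ± 0.10 in Dot1l(fl/+) and -0.16 ± 0.11 in the Dot1l(fl/fl)-labelled libraries, and the genotypes overlapped. Without the Dot1l(fl/fl)-labelled library 2 the latter value was -0.32, and without library 1 it was -0.0086. Aff3 (chr1:38177326-38664955) was at 113, 86.4 and 121 CPM in Dot1l(+/+), at 80.6, 104 and 92.6 CPM in Dot1l(fl/+), and at 91.6 and 100.1 CPM in the Dot1l(fl/fl)-labelled libraries. Its libraries overlapped as well, with log2 fold changes of -0.21 ± 0.12 and -0.16 ± 0.14, the second being -0.22 without library 2 and -0.09 without library 1.

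Aff1 (chr5:103692374-103855322), whose human counterpart is a frequent KMT2A fusion partner, rested on few reads. It had 83, 110 and 80 counts in Dot1l(+/+), 28, 76 and 47 in Dot1l(fl/+), and 50 and 13 in the Dot1l(fl/fl)-labelled libraries. These were between 0.936 and 3.20 CPM, above the 0.0694 to 0.216 CPM that 3 counts make in these libraries. The log2 fold changes of -0.63 ± 0.57 and -0.56 ± 0.65 had intervals that reached from -1.81 to 0.54 and from -1.90 to 0.79, so at this depth a change of Aff1 was not detectable within those bounds. The second value was 0.0044 without library 2 and -1.54 without library 1.

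Across the 9 members, 0 passed the adjusted threshold in edgeR in the Dot1l(fl/fl)-labelled libraries against Dot1l(+/+), where 0.0% of all 17988 genes did. At an unadjusted p under 0.05 there was 1 member, Kmt2a, with a negative fold change, against 9.27% of all genes (5.03% negative, 4.24% positive). That count was 3 of 9 without Dot1l(+/+) 2 (13.5% of all genes) and 0 of 9 without Dot1l(+/+) 3 (5.85%). Leaving out a Dot1l(fl/fl)-labelled library leaves a single library in that group, so no count is given here. Kmt2a was then at -0.77 without library 2 and at -0.16 without library 1. In Dot1l(fl/+) against Dot1l(+/+), 0 of 9 passed the adjusted threshold and 3, namely Dot1l, Mllt6 and Kmt2a, had an unadjusted p under 0.05, all with negative fold changes, where 2.86% of all genes did so in that direction and 2.16% in the other. With the offset for exon length and GC content only Dot1l kept an unadjusted p under 0.05, with (4.25% of all genes) or without (4.43%) a replicate block. With libraries left out, and no offset, the count was 0 without Dot1l(+/+) 1 (3.93% of all genes). It was 1 without Dot1l(+/+) 3 (Dot1l, against 3.60%) or Dot1l(fl/+) 2 (Aff3, against 4.34%). It was 2 without Dot1l(fl/+) 1 (4.75%) or 3 (4.03%), and 4 without Dot1l(+/+) 2 (8.43%). Dot1l was the single member whose libraries did not overlap between Dot1l(fl/+) and Dot1l(+/+), as were 5.97% of all genes in that direction and 5.56% in the other. Between the Dot1l(fl/fl)-labelled libraries and Dot1l(fl/+), 0 of 9 passed at an adjusted p (0.0% of all genes) and 0 of 9 at an unadjusted p under 0.05 (4.02% of all genes, 2.16% negative and 1.86% positive), all 9 adjusted p being 0.998 in edgeR. In this comparison Dot1l was at 0.45 on the log2 scale without the Dot1l(fl/fl)-labelled library 1. Without library 2 Kmt2a was at -0.48 and Aff4 at -0.30. No member was free of overlap in either comparison of the Dot1l(fl/fl)-labelled libraries, where 12.1% of genes lay wholly above and 11.6% wholly below Dot1l(+/+), and 10.2% and 9.57% above and below Dot1l(fl/+).

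The signs of the fold changes were mostly negative against Dot1l(+/+). In the Dot1l(fl/fl)-labelled libraries 8 of 9 were negative (50.4% of all genes), with a median of -0.16 against -0.003 over all genes. Without the Dot1l(fl/fl)-labelled library 2 it was -0.22 and without library 1 -0.05, with 7 of 9 negative in both cases, and it was -0.29 without Dot1l(+/+) 2 and -0.08 without Dot1l(+/+) 3. In Dot1l(fl/+) 8 of 9 were negative as well (51.0% of all genes), with a median of -0.21 against -0.007, which was -0.34 without Dot1l(+/+) 2. Both comparisons share the Dot1l(+/+) libraries, so they are not separate evidence. Between the Dot1l(fl/fl)-labelled libraries and Dot1l(fl/+), 4 of 9 were negative (49.8% of all genes) and the median was 0.05, which turned to -0.03 with the replicate block, -0.07 with block and offset, -0.05 without Dot1l(fl/+) 1 and -0.06 without the Dot1l(fl/fl)-labelled library 2, and was 0.11 without library 1. All 9 genes are longer than the median tested gene, at 3918 to 16670 exon bases against 3827, and with an offset per library for exon length and GC content the medians were -0.07 and -0.18, with 7 and 6 of 9 negative.

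**Figure D4:**
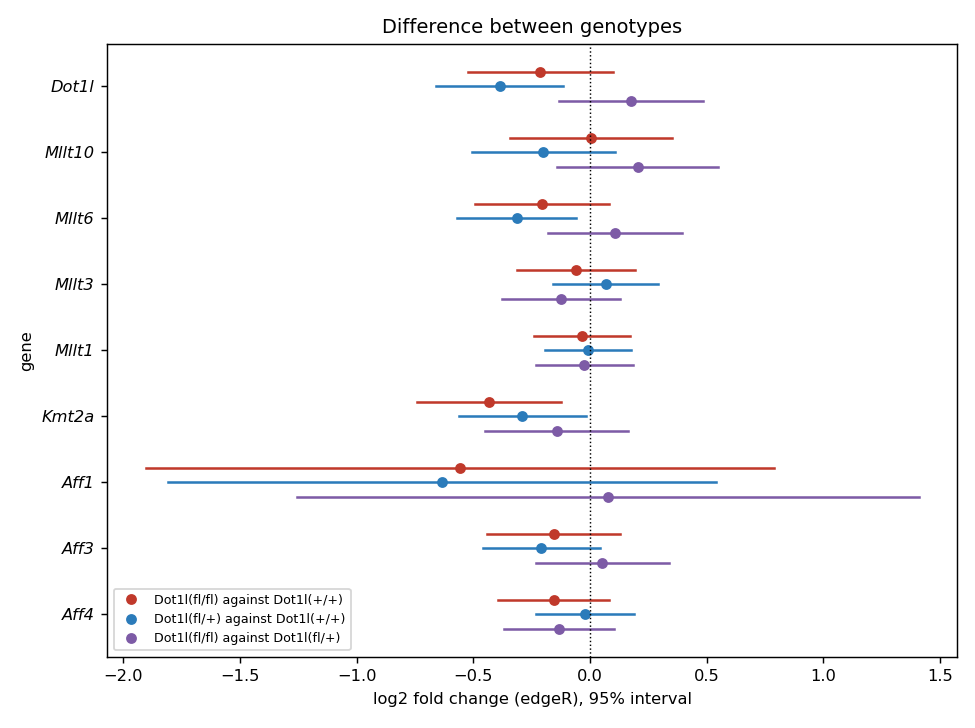
Log2 fold change of each gene with its 95% interval from edgeR in the 3 comparisons of genotypes. The intervals of Dot1l, Mllt6 and Kmt2a in Dot1l(fl/+) against Dot1l(+/+), and of Kmt2a in Dot1l(fl/fl) against Dot1l(+/+), lie below 0, and that of Aff1 is the widest.

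Dot1l's pattern over the 8 libraries was next compared with that of all other genes at a mean of 10 CPM or more (9952 genes), by Pearson's r of log2 CPM. The values are a description over 8 libraries that differ in genotype and in depth, and the part of either in r was not tested. The closest were Hdac7, a class IIa histone deacetylase (r = 0.99, Spearman's rho 0.95), Iqce (0.98 and 0.98), Amy1, an amylase (0.98 and 1.00), Leng8 (0.96 and 0.95) and Scaf4, which binds RNA polymerase II (0.95 and 0.83). Hdac7 was at 79.5, 64.0 and 72.6 CPM in Dot1l(+/+), at 55.1, 48.2 and 55.2 CPM in Dot1l(fl/+), and at 50.8 and 70.9 CPM in the Dot1l(fl/fl)-labelled libraries 1 and 2. Like Dot1l, it had a low Dot1l(fl/+) group and a higher level in the Dot1l(fl/fl)-labelled library 2 than in library 1. This likeness follows from its choice by r with Dot1l. Amy1 belongs to a family of near-identical amylase genes, so its counts are uncertain.

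Among the members the r with Dot1l was 0.85 for Mllt6, 0.83 for Mllt10 and 0.73 for Kmt2a. It was 0.51 for Aff3, 0.37 for Aff4, -0.13 for Aff1, -0.19 for Mllt3 and -0.47 for Mllt1. The 3 members over 0.7 stand beside 5.81% of the 9952 genes over that value, whose median r was -0.01. The coiled-coil partners and Kmt2a thus had a higher r with Dot1l than the YEATS proteins in these 8 libraries. Mllt1 ranged over only 0.18 on the log2 scale, so its r cannot show whether it follows Dot1l. The offset for exon length and GC content was not applied to these values.

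The wider pathway was read from 7 lists with 58 genes, of which 52 were tested. In the Dot1l(fl/fl)-labelled libraries against Dot1l(+/+), 0 of 52 passed the adjusted threshold in edgeR and 7 had an unadjusted p under 0.05, which is 13.5% against 9.27% of all genes. Of these 7, 5 had negative and 2 positive fold changes. With either Dot1l(fl/fl)-labelled library left out the median of the 52 genes was -0.05, but the direction of single genes could depend on the library. Npm1 was at -0.08 without library 2 and 0.32 without library 1, and Ccnt2 at -0.33 and 0.09. In Dot1l(fl/+) against Dot1l(+/+) 0 of 52 passed the adjusted threshold and 2 had an unadjusted p under 0.05 (3.85% against 5.02% of all genes). Between the Dot1l(fl/fl)-labelled libraries and Dot1l(fl/+) these counts were 0 and 2 of 52 (3.85% against 4.02%). The median log2 fold change of the 52 genes was -0.06, -0.03 and -0.02 in the 3 comparisons.

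Of the 5 other proteins found with DOT1L in its complex, all tested, 0 passed in any comparison. Skp1a, a ubiquitin ligase adaptor, had a log2 fold change of 0.21 ± 0.10 in Dot1l(fl/+), with an unadjusted p of 0.043 and an adjusted p of 0.94 in edgeR. In the Dot1l(fl/fl)-labelled libraries it was 0.22 ± 0.11, with 0.11 without library 2 and 0.33 without library 1. Trrap, a scaffold of acetyltransferase complexes, was at -0.13 ± 0.13 and -0.24 ± 0.15, and Npm1, the nucleolar chaperone nucleophosmin, at 0.09 ± 0.11 and 0.13 ± 0.12. The Npm1 counts are uncertain, since the gene has processed copies in the genome.

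Of 14 genes of the super elongation complex and P-TEFb, 13 were tested and Ell3 had 0 counts in all libraries. Ccnt2, a cyclin of P-TEFb, had log2 fold changes against Dot1l(+/+) of -0.11 ± 0.12 in the Dot1l(fl/fl)-labelled libraries and -0.19 ± 0.11 in Dot1l(fl/+). Mepce, which caps the 7SK RNA that holds P-TEFb inactive, was at -0.24 ± 0.21 and 0.09 ± 0.18.

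Of the 6 genes of the PAF1 elongation complex, which is needed for H2B ubiquitination ahead of H3K79 methylation, Wdr61 was at 29.5, 35.0 and 30.2 CPM in Dot1l(+/+) and at 41.3 and 41.8 CPM in the Dot1l(fl/fl)-labelled libraries. Its log2 fold change was 0.40 ± 0.16, with an unadjusted p of 0.0203 and an adjusted p of 0.426 in edgeR. This value was 0.39 without library 2 and 0.40 without library 1. Rtf1 of the same complex was at -0.25 ± 0.11, with an unadjusted p of 0.0308 and an adjusted p of 0.477 in edgeR. Its value was -0.23 without library 2 and -0.27 without library 1. Paf1 was at 0.16 ± 0.14. The signs within the complex thus differed, with 2 of 6 positive.

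Of 11 genes that add or remove ubiquitin on H2B, 10 were tested, and Usp44 had 0 counts in all libraries. Usp49, a deubiquitinase of H2B, was at 31.2, 41.9 and 34.8 CPM in Dot1l(+/+) and at 24.3 and 27.5 CPM in the Dot1l(fl/fl)-labelled libraries. These ranges did not overlap, as for 11.6% of all genes in that direction. The log2 fold change of Usp49 was -0.48 ± 0.18, with an unadjusted p of 0.0152 and an adjusted p of 0.38 in edgeR. This value was -0.57 without library 2 and -0.39 without library 1. Ube2b, a ubiquitin-conjugating enzyme, was at 0.20 ± 0.12, and Wac, an adaptor of the H2B ligase, at -0.12 ± 0.12.

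Of 10 proteins that work with KMT2A, all tested, Hcfc1, a cofactor bound by the methyltransferase, was at 226, 201 and 253 CPM in Dot1l(+/+), at 194, 196 and 193 CPM in Dot1l(fl/+), and at 164 and 190 CPM in the Dot1l(fl/fl)-labelled libraries. All libraries with a floxed allele lay below all Dot1l(+/+) libraries. Of all genes, 11.6% lay wholly below Dot1l(+/+) in the Dot1l(fl/fl)-labelled libraries and 5.97% in Dot1l(fl/+). The log2 fold change of Hcfc1 was -0.36 ± 0.11 in the Dot1l(fl/fl)-labelled libraries, with an unadjusted p of 0.00426 and an adjusted p of 0.281 in edgeR. This value was -0.47 without library 2 and -0.25 without library 1. In Dot1l(fl/+) it was -0.22 ± 0.10. Dpy30, a core subunit, was at 0.31 ± 0.16 and Psip1, a chromatin tether, at -0.16 ± 0.10 in the Dot1l(fl/fl)-labelled libraries.

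Of the other YEATS readers, Yeats4 was at 0.31 ± 0.13 in the Dot1l(fl/fl)-labelled libraries against Dot1l(+/+), with an unadjusted p of 0.0238 and an adjusted p of 0.444 in edgeR. Its value was 0.24 without library 2 and 0.37 without library 1. Yeats2 was at -0.27 ± 0.14. Of 10 genes known as DOT1L-dependent in KMT2A leukaemia, Hoxa5, Hoxa7, Hoxa9 and Hoxa10 had 0 counts in all libraries, which allows up to 0.216 CPM in the shallowest. Of the 6 that were tested, Cdk6 was at 6.45, 3.27 and 6.04 CPM in Dot1l(+/+), at 4.87, 4.78 and 6.85 CPM in Dot1l(fl/+), and at 2.51 and 3.17 CPM in the Dot1l(fl/fl)-labelled libraries. The last lay below all others by little, and 11.6% of all genes lay wholly below Dot1l(+/+) in these libraries. The log2 fold change of Cdk6 against Dot1l(+/+) was -0.89 ± 0.41, with an unadjusted p of 0.0404 and an adjusted p of 0.511 in edgeR. This value was -1.06 without library 2 and -0.73 without library 1. Meis1 was at 0.13 ± 0.28 and Myc at -0.44 ± 0.24.

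**Figure D5:**
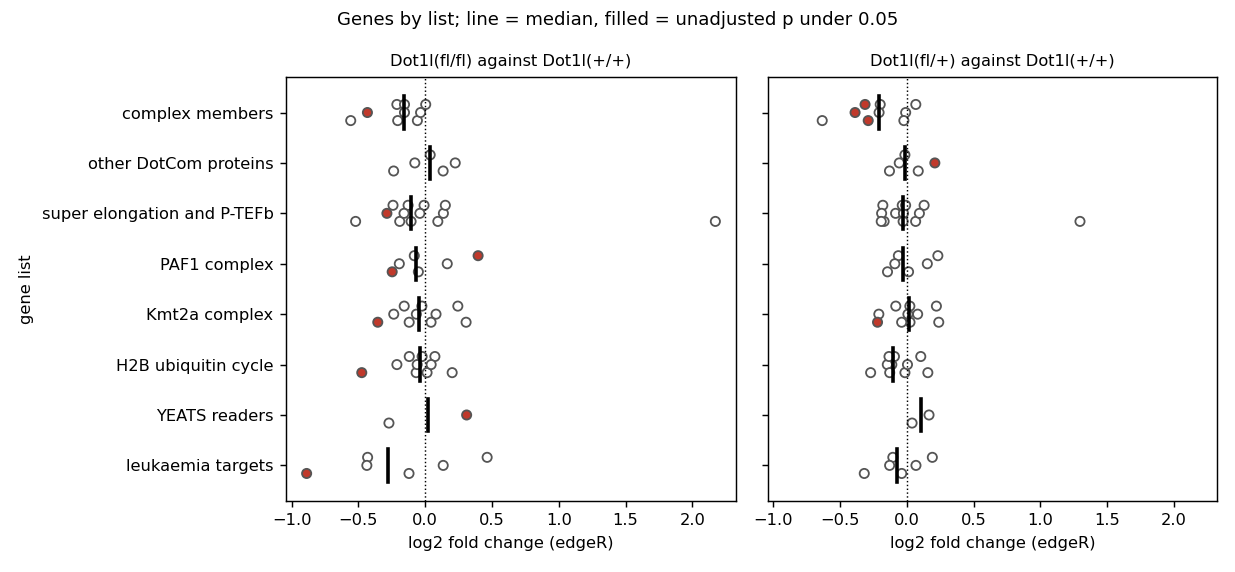
Log2 fold change of every tested gene of the 9 members and the 7 lists against Dot1l(+/+), in the Dot1l(fl/fl)-labelled libraries on the left and in Dot1l(fl/+) on the right; vertical lines are list medians and filled points have an unadjusted p under 0.05 in edgeR. The medians of the 7 lists lie between -0.28 and 0.10, and the outlying point of the super elongation list is Eaf2, an elongation cofactor with 77 counts over all libraries, named after its values were seen.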

How the data were processed

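The labels give 9 samples, of which 8 libraries had a count file, and titles gave the groups and replicate numbers. The values are raw counts by Ensembl gene as deposited by the authors. Per the labels, RNA of sorted neurons was made into libraries with a strand-preserving kit. The submitters' processing notes name bcl2fastq 2.17, Trimmomatic 0.30, DESeq2 1.10.1 and GRCm38.p4; the aligner, counter and strand setting are not given in the sources used here. The deposited tables of the authors' own DESeq2 comparisons (fold changes, standard errors, p-values) were used only for gene symbols.

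Counts were tested with the quasi-likelihood test of edgeR 4.0.16 (R 4.3.3, limma 3.58.1), TMM factors and filterByExpr, which kept 17988 of 47729 genes. The 8 libraries were fitted together with genotype as the only term, and Benjamini-Hochberg adjustment ran over all tested genes (threshold 0.05). CPM used TMM factors (prior count 2 for log values), and RPKM used the merged exons of GENCODE M21 (GRCm38), which held 99.1% of the gene identifiers. The members and lists were chosen with earlier results of these data known. Genes named were the 9 members, up to 3 genes per list with the smallest unadjusted p in any comparison, listed genes at 0, and the 5 genes closest to Dot1l in pattern. A gene of these lists is not reported here.

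Chi-square values per degree of freedom for libraries of the same genotype were 17.0 to 40.5, so none was counted as a repeat. Libraries are pools of embryos, and p-values measure the spread between such pools. Limits from counts of 0 use 3 counts and cover counting error only, as reads lacking molecular identifiers do not count molecules. The scripts were tested on simulated data. Alternatives were RLE size factors, no filter, DESeq2 1.42.0, only the 2 genotypes compared, a replicate block, an offset for length and GC content, both together, the longest transcript as length, and each library left out.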

Additional observations from a re-analysis of the deposited data

How the results depend on the processing

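No gene passed the threshold in any of the 3 comparisons with edgeR. At an unadjusted p under 0.05 there were 1667, 903 and 723 genes in the Dot1l(fl/fl)-labelled libraries against Dot1l(+/+), in Dot1l(fl/+) against Dot1l(+/+) and in the Dot1l(fl/fl)-labelled libraries against Dot1l(fl/+). In that order the adjusted threshold gave 106, 11 and 14 genes without the filter on low counts, 214, 0 and 1 with DESeq2, 6, 0 and 4 with the replicate number as a block, and 17, 0 and 9 with the block and the length and GC offset. Leaving out each library gave 0 to 75, 0 to 0 and 0 to 7 genes. For the first comparison it was 75 without Dot1l(+/+) 2, 50 without the Dot1l(fl/fl)-labelled library 2 and 4 without the Dot1l(fl/fl)-labelled library 1, and for the third 7 without either of the latter. The cause was not tested.

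Of 189 member values under the other alternatives, 178 kept their direction and their side of the threshold and 10 reversed, and of 144 under left-out libraries 122 kept both and 21 reversed. Kmt2a in the Dot1l(fl/fl)-labelled libraries against Dot1l(+/+) passed the threshold without the filter (log2 fold change -0.44), as the only 1 of the 189 values. Without the Dot1l(fl/fl)-labelled library 2 it was at -0.77, in a fit that leaves 1 library in that group. The reversed log2 values outside left-out libraries were all near 0. Against Dot1l(+/+) in the Dot1l(fl/fl)-labelled libraries, Mllt10 was at -0.00057 without the filter, -0.0031 with the replicate block and -0.028 with block and offset, and Mllt3 at 0.0397 with the offset. In Dot1l(fl/+), Mllt1 was at 0.029 and 0.028 and Aff4 at 0.049 and 0.047 with the offset and with block and offset. Between the Dot1l(fl/fl)-labelled libraries and Dot1l(fl/+), Aff1 was at -0.0896 with the block and -0.082 with block and offset. The block changed no other call. Same-numbered libraries deviated with correlations between -0.03 and 0.05 (7 pairs) and others between -0.05 and 0.04 (14 pairs). Deviations from a genotype mean sum to 0, so these pairs are not independent and cannot decide whether the numbers mark sets. The numbers were not taken as pairing the libraries in the main fit, since the labels do not say so.

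With each library left out in turn, the log2 values in the Dot1l(fl/fl)-labelled libraries against Dot1l(+/+) ran from -0.55 to 0.0625 for Dot1l, -0.21 to 0.19 for Mllt10, -0.38 to -0.05 for Mllt6, -0.11 to -0.01 for Mllt3, -0.13 to 0.0537 for Mllt1, -0.77 to -0.16 for Kmt2a, -1.54 to 0.0044 for Aff1, -0.29 to -0.06 for Aff3 and -0.32 to -0.0086 for Aff4. In Dot1l(fl/+) against Dot1l(+/+) they ran from -0.46 to -0.31 for Dot1l, -0.0024 to 0.17 for Mllt3, -0.0329 to 0.0186 for Mllt1 and -0.0921 to 0.0535 for Aff4. Between the Dot1l(fl/fl)-labelled libraries and Dot1l(fl/+) they ran from -0.16 to 0.45 for Dot1l, -0.0117 to 0.39 for Mllt10, -0.0636 to 0.26 for Mllt6, -0.13 to 0.0635 for Mllt1, -0.48 to 0.13 for Kmt2a, -0.91 to 0.64 for Aff1, -0.0359 to 0.15 for Aff3 and -0.30 to 0.0090 for Aff4. With the longest transcript as length, the rank of Mllt3 was 4, of Mllt6 5 and of Kmt2a 7. The Dot1l(fl/fl)-labelled libraries were the shallowest. Aff1 had the fewest counts of the members and the highest SD within groups, and the part of depth in its values was not tested. Leaving out the Dot1l(fl/fl)-labelled libraries for the pathway genes was chosen after seeing the data.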
